A study of Mus musculus with 15 samples.

Results

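Ldhb, the gene of the heart-type subunit of lactate dehydrogenase, had the highest level per exon length among 10 genes of pyruvate and glucose use in every one of 15 mouse oocyte libraries, and Slc2a3 and Hk1, a glucose transporter and a hexokinase, were at or near 0 in most of them. The 10 genes were taken by symbol from the 55401 genes counted in the study, by name and not by level, with earlier results of these data known: Slc2a1 and Slc2a3, Hk1, Pfkl and Pkm, Ldha and Ldhb, and Pdha1, Pdhb and Dlat. All 10 were measured and all 10 passed the filter on low counts that left 21009 genes. Slc2a3 passed through the IVV libraries: in fits of the compared groups alone, the filter removed it from each comparison without IVV. No member had an adjusted p under 0.05 in any of the 6 comparisons between groups made with edgeR, and the few differences beyond the looser threshold of the study mostly rested on 1 or 2 libraries. DESeq2 gave an adjusted p under 0.05 for Slc2a3 and Pfkl in some of them.

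Growing oocytes take little energy from glucose and depend on pyruvate that the surrounding granulosa cells make by glycolysis and pass to them. Glucose enters a cell through transporters of the SLC2 family, hexokinase traps it, phosphofructokinase commits it to glycolysis, and pyruvate kinase makes pyruvate. Lactate dehydrogenase interconverts pyruvate and lactate as tetramers of A and B subunits, and the pyruvate dehydrogenase complex, in mitochondria, turns pyruvate into acetyl-CoA for the TCA cycle.

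Each library was made from 6 oocytes of Kunming mice, amplified by SMART-Seq2, a method that copies polyadenylated RNA by PCR, and the groups held 3 libraries each from replicated experiments. The methods place the oocytes of all groups, at both days of culture too, at the germinal vesicle stage. IVV oocytes were taken from antral follicles grown in vivo. IVG and IVG-NT oocytes came from preantral follicles cultured to day 10 without or with neurotrophin-4 (NT-4) in the medium, and IVG day 6 and IVG-NT day 6 oocytes from follicles cultured likewise to day 6. All culture medium held FSH, insulin, transferrin, fetuin and albumin. The mice were 12 to 14 days old by the series' design, an age that the methods state for the donors of the cultured follicles and not separately for IVV, and the number of mice behind a library is not given.

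Total counts per library were 19.0 to 43.5 M in IVV, 39.3 to 45.6 M in IVG, 33.9 to 40.7 M in IVG-NT, and at day 6 23.7 to 55.6 M in IVG and 5.95 to 50.3 M in IVG-NT, where replicates 1 and 2, the shallowest of all, had 5.95 and 7.13 M. The libraries also fell into 2 kinds by the share of counts on the annotated rRNA gene CT010467.1: in 9 rRNA-rich libraries (replicate 3 of IVV, and the replicates numbered 1 and 2 in all in vitro groups) it took 12.5% to 37.9%, and in 6 rRNA-poor libraries 0.187% to 0.714%. All 12 oocyte markers examined had counts in every library, with a summed level of 12581 to 22866 normalized CPM (counts scaled to a common library total by TMM), while 16 granulosa and cumulus markers summed to 50.5 to 354, 12 theca and stroma markers to 0.562 to 98.3, and 7 macrophage and blood markers to 0 to 53.1. Single markers of other cells differed: the theca gene Insl3 was at 0 in all 15 libraries and the granulosa gene Amh in 13. Others were counted widely. Of the granulosa list, Nr5a2 and Kitl had counts in all 15 libraries, at up to 115 and 92.7 normalized CPM. Inha was at 0 in 1 library and reached 119. Cyp11a1, of the theca list, was at 0 in 4 and reached 65.6. PCR copies carry no molecular identifier, so each value is read against the spread among the libraries of a group.

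Ldha and Ldhb code for subunits of the same enzyme and differed widely in level, so the 250 bases before their RefSeq starts are shown (GRCm38.p6, each written in the direction of transcription). The Ldha stretch lies at chr7:46845554-46845803 on the plus strand and the Ldhb stretch at chr6:142507958-142508207 on the minus strand. Capitals mark every run of ACGTG, a form of the core of the element bound by hypoxia-inducible factors, or of its reverse complement CACGT.
Ldha: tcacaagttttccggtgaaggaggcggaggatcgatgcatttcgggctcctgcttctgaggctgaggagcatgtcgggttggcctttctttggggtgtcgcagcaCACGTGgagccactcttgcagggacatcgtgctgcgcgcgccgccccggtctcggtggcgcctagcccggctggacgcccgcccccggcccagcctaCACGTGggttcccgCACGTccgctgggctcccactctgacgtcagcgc
Ldhb: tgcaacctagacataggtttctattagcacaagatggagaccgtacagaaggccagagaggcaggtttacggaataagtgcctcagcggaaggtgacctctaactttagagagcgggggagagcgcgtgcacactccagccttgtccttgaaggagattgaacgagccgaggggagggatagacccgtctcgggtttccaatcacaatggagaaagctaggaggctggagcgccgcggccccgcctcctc
The Ldha stretch held 5 matches on the 2 strands, which overlap into 3 runs of capitals, since the palindrome CACGTG (the E-box) holds ACGTG on both strands and occurs 2 times. The Ldhb stretch held 0 matches of ACGTG, and other forms of the core, such as the GCGTG it holds in lower case, were not searched. RefSeq gives a second start for Ldha, whose stretch held 0 as well. In the first stretch listed for each of the 9 members with a RefSeq promoter, 3 held ACGTG (Pdhb, Ldha and Slc2a1) against 16.6% of the first stretches of all 27025 genes with one, 1 held CACGTG against 6.05%, 5 held CCGCCC, the GC box, against 32.9%, and 0 held TATAAA, the TATA box, against 13%, each searched on both strands. The stretch of a second start of Pkm held ACGTG as well. These are matches of letters only.

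Levels of different genes were compared as normalized CPM per kilobase of exon. On this scale the median over the 15 libraries was 723 for Ldhb, 34.2 for Pkm, 19.2 for Pdhb, 11.4 for Pdha1, 8.98 for Slc2a1, 8.08 for Dlat, 5.24 for Ldha, 1.47 for Pfkl, 0.0521 for Hk1 and 0 for Slc2a3. Ldhb ranked first of the 10 in 15 of 15 libraries and between rank 2 and rank 57 of the 21009 genes tested. Pkm was second in 13 libraries, and Hk1 and Slc2a3 held places 8 to 10 in each of them. Neighbours in the middle of the order did not separate: Pdhb was above Pdha1 in 8 of 15 libraries, although it was above Dlat in 13. The plot of the 10 genes by library shows these ranges beside the kind of each library.

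**Figure D1:**
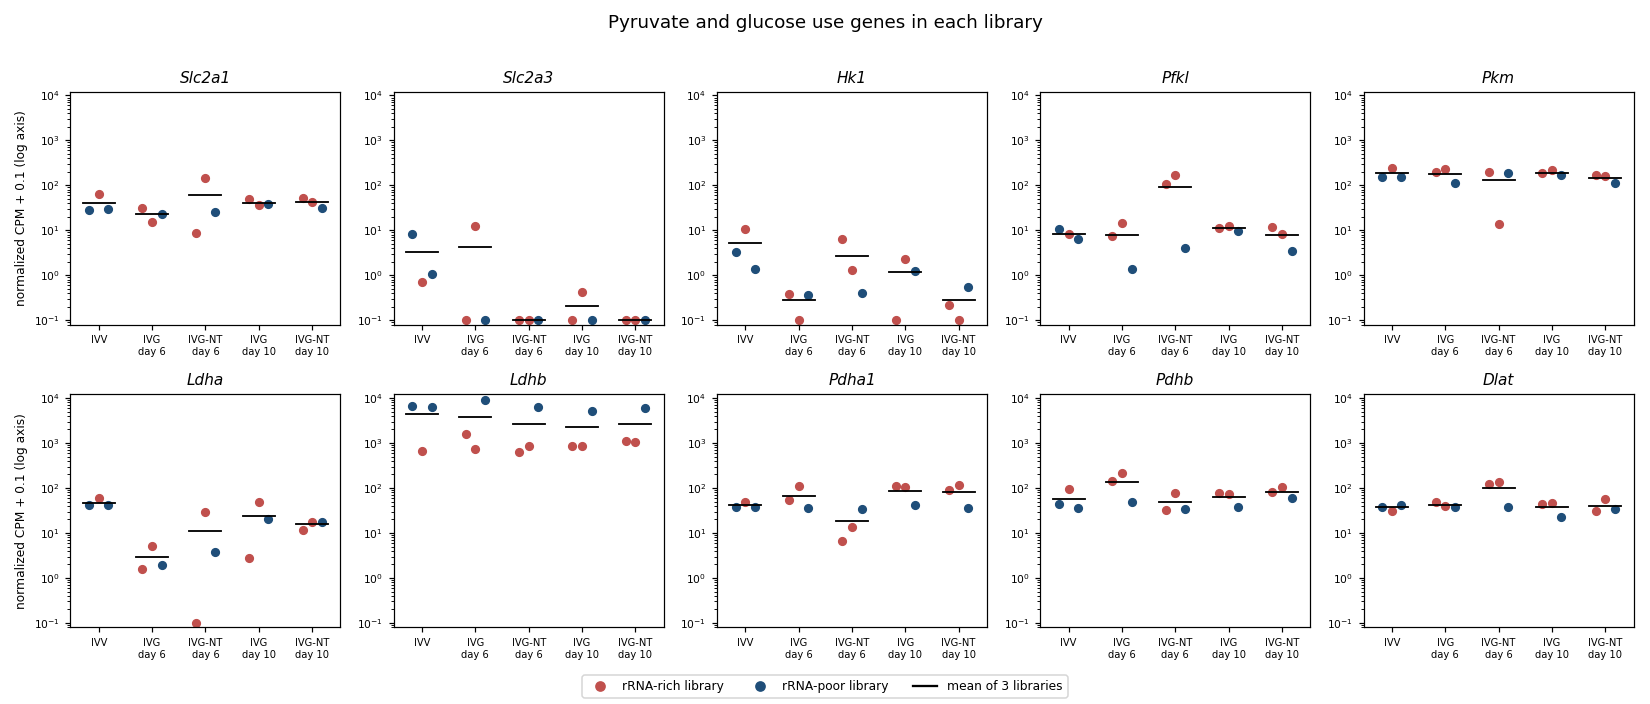
Normalized CPM plus 0.1 (log axis) of each of the 10 genes in the 5 groups, a point per library and a line at the mean of 3, with red for rRNA-rich and blue for rRNA-poor libraries. Ldhb splits by colour, at 633 to 1572 in the rRNA-rich and 5201 to 9193 in the rRNA-poor libraries, and Pfkl is above 100 only in IVG-NT day 6 replicates 1 and 2.

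Ldhb (ENSMUSG00000030246, chromosome 6, 142490249 to 142507957, minus strand) gives the lactate dehydrogenase subunit that favours turning lactate into pyruvate. Its normalized CPM, in the order of the replicate numbers, were 6599, 659 and 6318 in IVV (replicates 2, 3 and 4), 841, 876 and 5201 in IVG, and 1134, 1060 and 5957 in IVG-NT. At day 6 they were 1572, 749 and 9193 in IVG and 633, 843 and 6279 in IVG-NT. The groups overlapped throughout, and the libraries divided by kind instead: the 9 rRNA-rich libraries lay at 633 to 1572 and the 6 rRNA-poor libraries at 5201 to 9193. Ldhb was the only member whose levels did not overlap between the kinds (1 of 10, against 13.2% of all genes tested, and 10.3% in this direction). IVV holds 2 rRNA-poor libraries and each in vitro group 1. The fitted Ldhb difference of IVG minus IVV was -0.97 (SE 1.14) on the log2 scale without the kind in the model and 0.01 (SE 0.28) with it. The kind was defined from these same data, and its part in the difference was not tested. With the kind in the model, Ldhb was lower in IVG-NT than in IVG at day 6 by a log2 fold change of -0.62 (SE 0.27, edgeR quasi-likelihood test, adjusted p = 0.295), a difference under the 2-fold limit of the study's threshold.

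Ldha (ENSMUSG00000063229, chromosome 7, 46841475 to 46855627, plus strand) gives the subunit that favours turning pyruvate into lactate. Its normalized CPM were 41.0, 58.8 and 40.8 in IVV, 2.67, 48.8 and 20.8 in IVG and 11.6, 17.4 and 17.7 in IVG-NT. At day 6 they were 1.51, 5.15 and 1.85 in IVG and 0, 28.5 and 3.77 in IVG-NT. Every IVV library was above every IVG-NT library, as in 7.04% of all genes, and IVG, at 2.67 to 48.8, overlapped each of the other groups. Per kilobase, Ldhb exceeded Ldha in 15 of 15 libraries, and its share of the sum of both genes was 98.4% ± 2.17 in IVV, 99.0% ± 1.39 in IVG, 99.5% ± 0.315 in IVG-NT, and at day 6 (SD, n = 3 throughout) 99.9% ± 0.173 without and 99.5% ± 0.905 with NT-4. The lowest library, IVV replicate 3, was at 95.9%. No difference in share was larger than the spread between libraries (two-sided exact permutation tests in the 6 comparisons, p = 0.4 to 1, where 3 libraries against 3 allow 0.1 at the smallest).

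**Figure D2:**
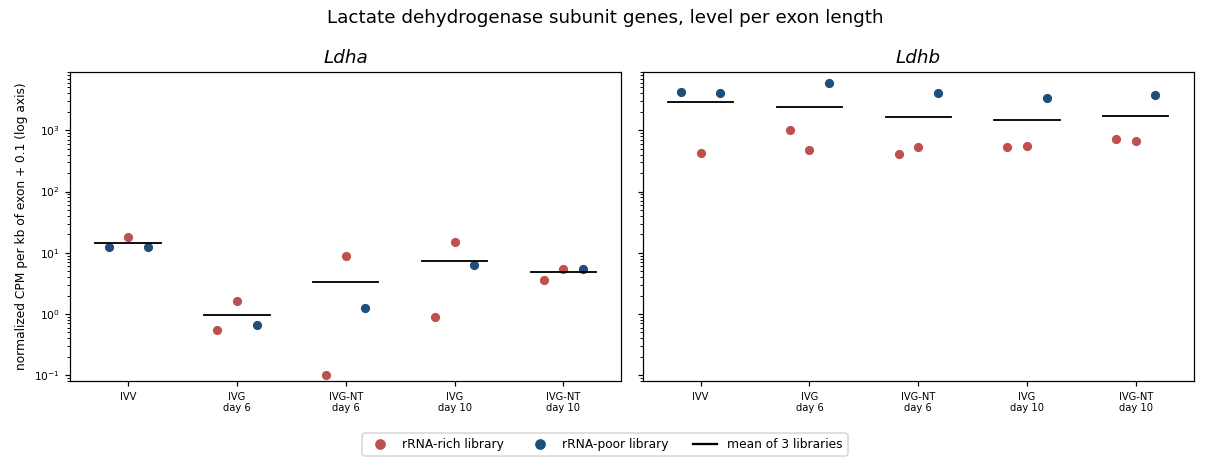
Normalized CPM per kilobase of exon plus 0.1 (log axis) of Ldha and Ldhb in the 5 groups, a point per library coloured by kind and a line at the mean of 3. Ldhb stands above Ldha in all 15 libraries, and the kinds separate for Ldhb and not for Ldha.

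Pdha1 (ENSMUSG00000031299, X chromosome, 160122209 to 160138413, minus strand) and Pdhb (ENSMUSG00000021748, chromosome 14, 8165996 to 8173025, minus strand) give the alpha and beta subunits of the decarboxylating enzyme of the pyruvate dehydrogenase complex. The normalized CPM of Pdha1 were 38.3, 49.9 and 38.2 in IVV, 113.6, 105.6 and 42.6 in IVG and 88.4, 118.3 and 35.9 in IVG-NT. At day 6 they were 54.0, 108.6 and 36.6 in IVG and 6.69, 13.4 and 34.2 in IVG-NT. The rRNA-poor libraries lay close together at 34.2 to 42.6 in all 5 groups, while the rRNA-rich libraries ran from 6.69 to 118.3, with both ends in cultured oocytes. Pdhb was at 43.3, 94.2 and 35.1 in IVV, 78.5, 74.2 and 37.7 in IVG, 81.0, 106.3 and 59.3 in IVG-NT. At day 6 it was at 145.8, 217.6 and 49.1 in IVG and 32.0, 78.1 and 33.6 in IVG-NT, and every compared pair of groups overlapped. An exon of Map3k15 on the other strand shares 425 bases with Pdha1. The methods name no step that keeps the strand in the oocyte libraries, and without one, reads of the 2 genes cannot be told apart there.

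Dlat (ENSMUSG00000000168, chromosome 9, 50634633 to 50659780, minus strand) gives the acetyltransferase core of the same complex. Its mean normalized CPM was 37.2 ± 5.26 in IVV, 38.4 ± 13.4 in IVG, 40.5 ± 14.2 in IVG-NT and 42.1 ± 6.04 in IVG day 6 (SD, n = 3), differences within the spread between libraries. In IVG-NT day 6 the 3 libraries were at 123.4, 134.5 and 38.1. The high values belong to the 2 shallow libraries, and the 13 others ran from 23.0 to 56.7 normalized CPM.

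Slc2a1 (ENSMUSG00000028645, chromosome 4, 119108711 to 119137983, plus strand) gives GLUT1 and Slc2a3 (ENSMUSG00000003153, chromosome 6, 122727809 to 122801640, minus strand) GLUT3, transporters that carry glucose into cells without energy input. The normalized CPM of Slc2a1 were 27.9, 63.2 and 29.5 in IVV, 50.2, 36.4 and 37.9 in IVG and 51.5, 41.8 and 31.5 in IVG-NT. At day 6 they were 31.4, 15.7 and 23.3 in IVG and 8.49, 147.8 and 25.5 in IVG-NT, so the highest and the lowest of all 15 were the 2 shallow libraries of 1 group. Slc2a3 had 382, 10 and 47 counts in the IVV libraries (8.0, 0.606 and 0.955 normalized CPM), 14 counts in IVG replicate 2, 243 counts in IVG day 6 replicate 2 and 0 in the other 10 libraries. It was thus counted in 3 of 3 IVV libraries and in 2 of 12 from culture. Slc2a1 was above Slc2a3 per kilobase in 15 of 15 libraries.

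Hk1 (ENSMUSG00000037012, chromosome 10, 62268855 to 62379908, minus strand), the hexokinase that traps glucose as glucose 6-phosphate, was at 3.18, 10.7 and 1.26 normalized CPM in IVV, 0, 2.18 and 1.16 in IVG and 0.118, 0 and 0.444 in IVG-NT. At day 6 it was at 0.288, 0 and 0.265 in IVG and 6.32, 1.22 and 0.310 in IVG-NT. The 3 IVV libraries were above the 3 of IVG-NT, with the lowest of IVV at 62 counts, and the 3 of IVG-NT day 6 were above those of IVG day 6, where no library had more than 18 counts. The antisense gene Hk1os shares 157 exon bases with Hk1, and an antisense gene, Gm12868, shares 105 with Slc2a1. Reads there cannot be told apart either, without a step that keeps the strand.

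Pfkl (ENSMUSG00000020277, chromosome 10, 77986947 to 78010083, minus strand), the liver-type phosphofructokinase, was at 10.4, 8.06 and 6.44 normalized CPM in IVV, 11.4, 12.4 and 9.79 in IVG and 11.9, 8.36 and 3.32 in IVG-NT. At day 6 it was at 7.45, 14.8 and 1.29 in IVG and 105.3, 170.6 and 3.99 in IVG-NT. The 2 shallow libraries thus stood above the 13 others, of which the highest was 14.8, while the deep library of their own group was at the low end. Pkm (ENSMUSG00000032294, chromosome 9, 59656368 to 59679375, plus strand), pyruvate kinase, was at 111 to 248 normalized CPM in 14 libraries and at 13.7 in IVG-NT day 6 replicate 2. The unclassified gene Gm49759 shares 454 exon bases of its own strand with Pkm.

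The comparison of IVG with IVV sets oocytes from follicles cultured for 10 days against others grown in vivo. IVV is not the state before culture, and the kinds of library are not balanced between these groups. Of the 10 members, 0 met the study's threshold, a log2 fold change beyond 1 with an unadjusted P under 0.05, in edgeR's quasi-likelihood test, against 2.76% of all genes tested, and 0 did in DESeq2. Levels did not overlap for 1 of 10 members, Slc2a3, lower in IVG, against 11.9% of all genes (6.53% in this direction). The median log2 fold change of the members was 0.05, and that of all genes -0.20. The members with the smallest P were Slc2a3, with a log2 fold change of -4.87 (SE 3.01, adjusted p = 1) from 439 counts in IVV against 14, and Pdha1, with 1.05 (SE 0.78, adjusted p = 1) from means of 87.2 ± 38.9 in IVG and 42.2 ± 6.70 in IVV. Without IVG replicate 2, the only IVG library with Slc2a3 counts, that gene met the threshold, and in a fit of the 2 groups alone Pdha1 did.

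Between IVG-NT and IVV, 1 of 10 members met the threshold, Slc2a3, lower in IVG-NT, against 3.29% of all genes (2.67% in this direction). It had 0 counts in the 3 IVG-NT libraries and 439 in IVV, at least 137-fold lower against 3 counts over the group (adjusted p = 1). Slc2a3 passed the filter through IVV, the group where it was high, so this call is not independent of the filter. The call was lost without IVV replicate 2, which held 382 of the counts, without any of the 3 IVG-NT libraries, and among rRNA-rich libraries alone. Hk1 was next, with a log2 fold change of -4.71 (SE 2.23, adjusted p = 1). The levels of 3 members, Slc2a3, Hk1 and Ldha, lay without overlap below IVV and those of 0 above it, against 11.6% of all genes in either direction and 7.04% in this one. The fitted log2 fold change of Ldha was -1.59 (SE 1.37, adjusted p = 1). The members' median log2 fold change was -0.20, and that of all genes -0.19. Both this comparison and the one before it use the same IVV libraries.

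Between IVG-NT and IVG at day 10, which asks for the effect of NT-4, 0 of 10 members met the threshold in edgeR, against 1.24% of all genes, and 0 had levels without overlap, against 3.59%. DESeq2 gave 1, beside 153 of all genes: Slc2a3, which had 14 counts in 1 IVG library and 0 in IVG-NT, a bound of at least 3.63-fold lower. Next to Slc2a3, the smallest P was that of Hk1, whose log2 fold change was -2.54 (SE 2.02, adjusted p = 1) at levels of at most 2.18 normalized CPM. The other 8 members differed by log2 fold changes of -0.63 (Ldha) to 0.37 (Pdhb), each smaller than its standard error. The members' median was -0.25 and that of all genes 0.01.

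At day 6 the comparison of IVG-NT with IVG gave 3 of 10 members beyond the threshold, against 11.6% of all genes, 1 of them higher (6.74% of all genes) and 2 lower (4.83%). Pfkl was higher with NT-4 by a log2 fold change of 3.57 (SE 1.19, adjusted p = 0.381), and Pdha1 was lower at -1.87 (SE 0.80, adjusted p = 0.397). Slc2a3, at 0 in IVG-NT and counted in 1 IVG library, was at least 51.1-fold lower by counts summed over each group (adjusted p = 0.397). That bound rests on the 1 library, and the other IVG libraries of day 6 were at 0 too. Levels did not overlap for Hk1, higher with NT-4 (1.01% of all genes in this direction), and for Pdha1, lower (7.44%), 2 of 10 against 8.45%. For Hk1 the gap lay near 0: the lowest level with NT-4 was 0.310 normalized CPM (19 counts) and the highest without 0.288 (8 counts). The members' median log2 fold change was 0.39, and that of all genes -0.27.

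The day 6 calls of Pfkl and Pdha1 were lost without the 2 shallow IVG-NT libraries. With both left out, so that IVG-NT day 6 is the lone replicate 3 and is assumed to vary like the other groups, 0 members met the threshold, Pfkl turned to -0.86 (SE 1.15) and Pdha1 stood at -0.86 (SE 0.85). Slc2a3 kept its fitted log2 fold change (-10.35 against -10.24) but not its call, and its 243 counts in IVG day 6 all came from replicate 2. Of single libraries, the Pdha1 call was lost without either shallow library or IVG day 6 replicate 2, where it was at -1.28. The Slc2a3 call was lost without any of the 3 IVG-NT libraries, and without IVG day 6 replicate 2, where both groups were at 0. In the rRNA-rich libraries alone, which include both, Pfkl was at 3.56 (SE 0.89, adjusted p = 0.122) and Pdha1 at -3.09 (SE 0.72, adjusted p = 0.105), and Slc2a3 did not meet the threshold (adjusted p = 0.362). In 8 of 10 members 1 or both of these libraries lay outside the range of the 13 others, as in 60.3% of all genes, and in 2, Pfkl and Dlat, both lay above it, as in 3.52% of all genes. The summed markers of theca and stroma were 8.0 to 98.3 in IVG-NT day 6 and 1.51 to 12.0 in IVG day 6, those of oocytes 12957 to 15361 and 18141 to 22866, without overlap, those of macrophages and blood 0 to 53.1 and 0 to 1.56, and those of granulosa cells 50.5 to 120 and 54.8 to 158, and the part of other cells, of oocyte markers and of depth in the result was not tested. Neither the number of intact oocytes nor the RNA per oocyte is given for these pools, so the 2 cannot be told apart. What made the 2 libraries shallow was not tested.

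**Figure D3:**
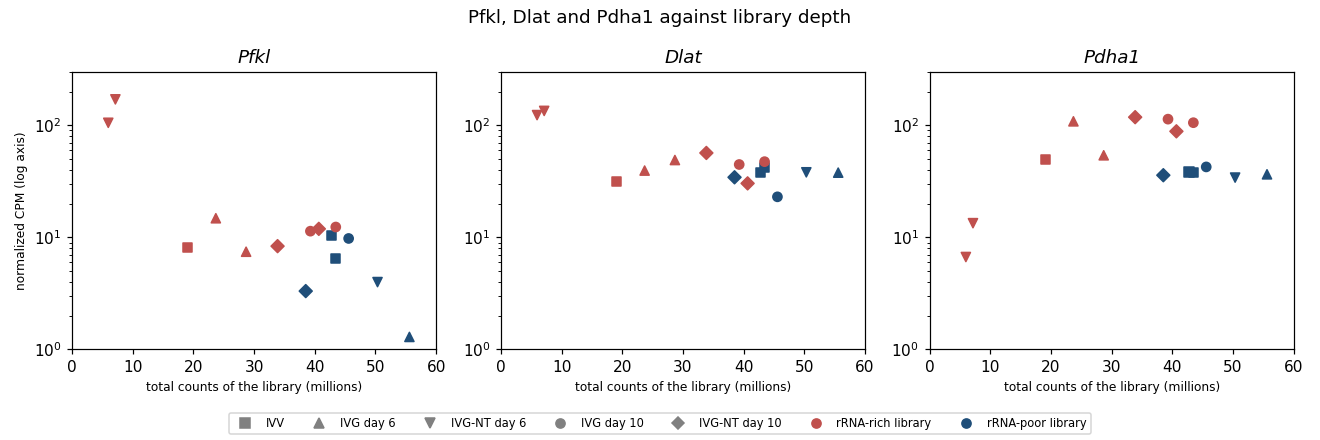
Normalized CPM (log axis) of Pfkl, Dlat and Pdha1 against the total counts of each library in M, with shapes for the groups and colours for the kinds. The 2 IVG-NT day 6 libraries with the fewest counts are the highest of 15 for Pfkl and Dlat and the lowest for Pdha1.

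Between day 10 and day 6 of culture without NT-4, 1 of 10 members met the threshold, against 2.9% of all genes (1.69% in its direction). Ldha was higher at day 10 by a log2 fold change of 3.09 (SE 1.45, adjusted p = 1), although IVG replicate 1, at 2.67, lay below IVG day 6 replicate 2, at 5.15. The summed granulosa and cumulus markers were 103, 354 and 267 normalized CPM in IVG and 97.5, 158 and 54.8 in IVG day 6. The part of such cells in the Ldha result was not tested. With the replicate number as a block, Ldha was at 2.51 (SE 1.42) and 0 members met the threshold. The call was also lost without IVG replicate 2, the library at 48.8, where the log2 fold change was 2.05, without IVG replicate 3 and without any of the 3 IVG day 6 libraries, and it held at 3.11 (SE 0.85, adjusted p = 0.875) without the 2 shallow libraries of the other group, which share the estimate of the spread. Slc2a1 alone had levels without overlap, higher at day 10 (log2 fold change 0.82, SE 0.89), 1 of 10 against 7.42% of all genes (4.47% in this direction). Slc2a3 had a log2 fold change of -5.25 (SE 3.06, adjusted p = 1), which turned to 5.0 without IVG day 6 replicate 2, the library with 243 counts. The members' median was 0.24 and that of all genes 0.05.

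With NT-4, 2 of 10 members differed beyond the threshold between day 10 and day 6, against 12.7% of all genes, 1 higher (5.45%) and 1 lower (7.21%). Pdha1 was higher at day 10 by 2.16 (SE 0.81, adjusted p = 0.357) and lay without overlap, 1 of 10 against 11% of all genes (9.74% in this direction), and Pfkl was lower at -3.57 (SE 1.19, adjusted p = 0.357). The Pdha1 call was lost without IVG-NT replicate 2 or IVG-NT day 6 replicate 1. Without IVG-NT day 6 replicates 1 and 2, 0 met it, with Pdha1 at 1.13 (SE 0.86) and Pfkl at 0.86 (SE 1.15). This comparison shares those libraries with the one of NT-4 at day 6. The members' median was 0.04 and that of all genes 0.40. By DESeq2, Slc2a3 had an adjusted p under 0.05 in the 3 comparisons where a group was at 0 and another was not, and Pfkl in both that use IVG-NT day 6 (adjusted p = 0.00533 and 0.00462).

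**Figure D4:**
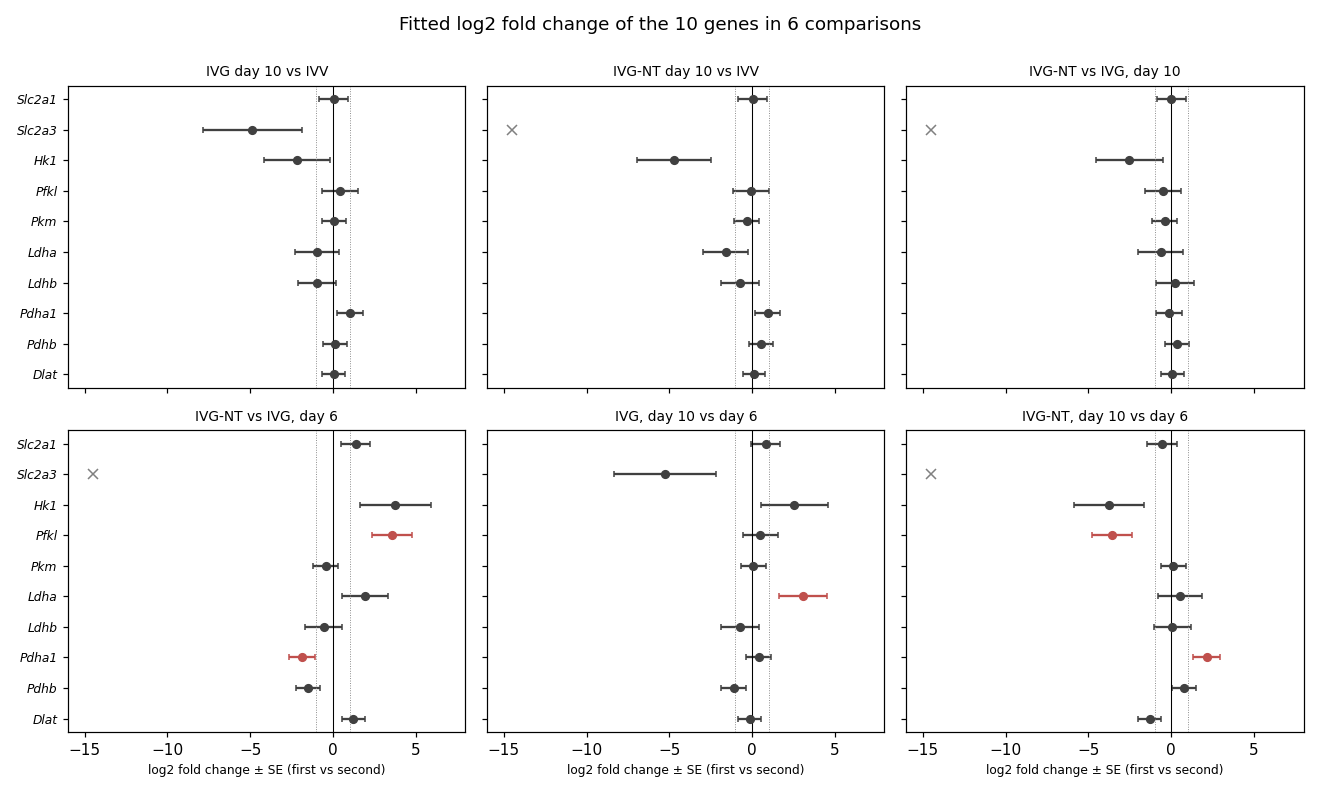
Fitted log2 fold changes of the 10 genes with their standard errors (bars) in the 6 comparisons, first group against second, with dotted lines at -1 and 1 and red for members with P under 0.05 beyond them. Crosses at the left edge stand for Slc2a3 where a group was at 0 in all libraries, for which no fold change is drawn. Most bars cross 0. The red points are Pfkl and Pdha1 in both comparisons that use IVG-NT day 6, and Ldha in IVG between the days.

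The effect of NT-4 at day 10 minus that at day 6 was tested as an interaction. It had an unadjusted P under 0.05 in 2 of 10 members, against 6.37% of all genes: Hk1, with a log2 difference of -6.31 (SE 2.94, adjusted p = 0.775), and Pfkl, with -4.08 (SE 1.59, adjusted p = 0.664). Without the 2 shallow libraries it had 0 such members, with Hk1 at -3.29 (SE 3.01) and Pfkl at 0.32 (SE 1.35). With 1 library left out at a time, Hk1 kept a P under 0.05 only when the omitted one was replicate 1 of IVG, replicate 3 of IVG-NT, or replicate 2 or 3 of IVG-NT day 6.

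The rest of the pathways was read from 6 lists of 91 genes, of which 80 were tested. Per kilobase their highest medians over the 15 libraries were those of Bpgm (191), which makes 2,3-bisphosphoglycerate from a glycolytic intermediate, G6pdx (125.4), the entry enzyme of the pentose phosphate pathway, and Sdhd (78.7), a subunit of succinate dehydrogenase, all below Ldhb. In IVG against IVV, 1 of 80 met the threshold (1.25%, against 2.76% of all genes): Tigar, a phosphatase that lowers glycolytic flux, with 376, 248 and 108 normalized CPM in IVG against 99.9, 65.7 and 90.1 in IVV, without overlap (log2 fold change 1.52, SE 0.65, adjusted p = 1). The call was lost without any library of the 2 groups except IVG replicate 3, with 1.03 without IVG replicate 1. The median log2 fold change was -1.18 over the 12 genes of glucose transport and hexokinases and 0.08 over the 18 of glycolysis, -0.04 over the 7 of lactate and monocarboxylate transport, 0.25 over the 15 of pyruvate import and pyruvate dehydrogenase, 0.04 over the 18 of the TCA cycle and 0.34 over the 10 of the pentose phosphate pathway.

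In IVG-NT against IVV, 3 of 80 did (3.75%, against 3.29%). Cs, citrate synthase, was higher at 485, 726 and 132 against 141, 186 and 132 normalized CPM, groups that overlapped (1.55, SE 0.71, adjusted p = 1), a call lost without any of these libraries except IVG-NT replicate 3 (0.97 without IVG-NT replicate 2). The transporter gene Slc2a6 and the enolase gene Eno2 were at 0 in IVG-NT and reached 130 and 23 counts in an IVV library. In IVG-NT against IVG, Eno2 alone did (1.25%, against 1.24%), from 56 counts in 1 IVG library. In IVG between day 10 and day 6, 2 did (2.5%, against 2.9%): Pdk2, a kinase that switches pyruvate dehydrogenase off, with 6 to 57 counts at day 10 and 0 at day 6, and the transketolase-like gene Tktl1, with 0 to 121 counts and 0.

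In IVG-NT against IVG at day 6, 13 of 80 list genes met the threshold, 9 higher and 4 lower (16.2%, against 11.6%). By list, the numbers higher and lower were 2 and 1 of 12 in glucose transport and hexokinases, 1 and 0 of 18 in glycolysis, 2 and 0 of 7 in lactate and monocarboxylate transport, 2 and 1 of 15 in pyruvate import and pyruvate dehydrogenase, 1 and 1 of 18 in the TCA cycle and 1 and 1 of 10 in the pentose phosphate pathway. Slc16a1, a carrier of lactate and pyruvate, was at 4.16, 435 and 48.6 normalized CPM with NT-4 and 13.4, 6.64 and 23.4 without (3.49, SE 1.13, adjusted p = 0.381), and its call too was lost, at 0.93, without IVG-NT day 6 replicate 2. Slc16a3, a lactate exporter, was at 255 in IVG-NT day 6 replicate 2 and at 0 in the other 2, and H6pd, a glucose 6-phosphate dehydrogenase of the endoplasmic reticulum, at 320 in replicate 1, 0 in replicate 2 and 0.130 in replicate 3, so both calls rested on 1 library, and each turned negative without it. Lower were Slc2a10, a facilitative transporter, at 0 in the 3 IVG-NT libraries and at 6 to 160 counts in IVG, Pdp1, a phosphatase that switches pyruvate dehydrogenase on (21.1 ± 16.5 against 87.0 ± 41.6, log2 fold change -2.04, SE 0.84, adjusted p = 0.393), and Dlst, a subunit of the 2-oxoglutarate dehydrogenase complex (27.0 ± 26.1 against 126.0 ± 30.0, -2.22, SE 0.96, adjusted p = 0.401). The Pdp1 call was lost without IVG day 6 replicate 2 (-1.58), and that of Dlst without any of 4 single libraries, at -2.28 to -1.69.

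In IVG-NT between day 10 and day 6, 14 of 80 met it, 7 higher and 7 lower (17.5%, against 12.7%). Slc2a10 was counted in all 3 day 10 libraries (12 to 116 counts) and at 0 in those of day 6, and the TCA cycle gene Cs was higher at day 10 (448 ± 299 against 117 ± 47.4 normalized CPM, log2 fold change 1.93, SE 0.72, adjusted p = 0.357), a call lost without IVG-NT replicate 2 (1.34) or IVG-NT day 6 replicate 1. Slc2a6 and Slc2a4, both glucose transporters, were at 0 at day 10 and had counts (156 and 105) only in day 6 replicate 1, and H6pd was lower at day 10 for the same library (-4.98, SE 2.06, adjusted p = 0.357). By list, 2 were higher and 2 lower in glucose transport and hexokinases and likewise in the pentose phosphate pathway, 3 higher and 0 lower in the TCA cycle, 0 and 2 in pyruvate import and pyruvate dehydrogenase, 0 and 1 in lactate and monocarboxylate transport and 0 in glycolysis.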

How the data were processed

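RNA of 15 pools of 6 oocytes was amplified with SMART-Seq2 and sequenced in paired ends. After trimming reads for adaptors and quality, the authors used HISAT2 for alignment to mm10, and they deposited raw counts for 55401 Ensembl genes per library without normalization; how counts per gene were taken, their strand setting and the annotation release are not given in the sources used here. Titles gave groups and replicate numbers (2 to 4 for IVV). Symbols (99.5% of identifiers), coordinates and exon lengths came from GENCODE vM21 (GRCm38) and promoters from RefSeq, where Slc2a3 had no entry.

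The tools were edgeR 4.0.16, limma 3.58.1 and DESeq2 1.42.0 in R 4.3.3, with plots by matplotlib 3.10.9 (Python 3.11.15). Genes kept by filterByExpr (minimum count 10) were scaled by TMM. All 15 libraries entered 1 quasi-likelihood fit of 5 group means, from which each comparison took its F test, with Benjamini-Hochberg adjustment over 21009 genes. The threshold was the study's, a log2 fold change beyond 1 and P under 0.05. The Ldhb share was compared with two-sided exact permutation tests. Where a group was at 0, a bound was taken against 3 counts over the group. Libraries of a group differed far beyond counting error (chi-square per gene 51.5 to 1667).

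Fold changes are given for each member beyond the threshold, and where fewer than 2 were, for the members with the smallest P up to 2; of the lists, for up to 3 genes higher and 3 lower with the smallest P among those beyond it, of which 1 is not reported here. Members and lists were chosen with earlier results of these data known. Deviations of libraries with the same replicate number correlated at 0.37 to 0.73 between IVG-NT and IVG and at 0.15 to 0.54 between IVG and IVG day 6, so the numbers were taken to pair these. Other numbers of the same kind of library correlated as highly (IVG-NT 2 with IVG 1 at 0.37, IVG 2 with IVG day 6 1 at 0.26), so number and kind cannot be told apart, and the labels give no shared experiment. The limit of 5% between rRNA-rich and rRNA-poor libraries was chosen with the shares known. Alternatives were DESeq2, its size factors (RLE) in edgeR, no filter, the replicate number or the kind of library in the model, rRNA-rich libraries only, the compared groups only, and each library left out. Granulosa cell libraries were not analysed here.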

Additional observations from a re-analysis of the deposited data

Results flagged for a closer look

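The effect of NT-4 differed between the days of culture by an interaction test in 2 members (edgeR quasi-likelihood test, unadjusted P under 0.05). For Hk1, the day 10 effect minus the day 6 effect was -6.31 on the log2 scale (SE 2.94, adjusted p = 0.775), at levels of at most 6.32 normalized CPM in these 4 groups. For Pfkl it was -4.08 (SE 1.59, adjusted p = 0.664), with 105.3 and 170.6 normalized CPM in IVG-NT day 6 replicates 1 and 2 and at most 14.8 in the other libraries. Neither passed the adjustment over all genes, and Hk1 lost its P under 0.05 with the kind of library in the model, in rRNA-rich libraries alone and with no filter. Without those 2 libraries, a setting chosen after seeing the data, the values were -3.29 (SE 3.01) and 0.32 (SE 1.35), and the part of their low depth was not tested.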

How the results depend on the processing

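The numbers of members beyond the threshold moved with the following settings. DESeq2 gave 2 in IVG-NT against IVV (565 of all genes met the threshold there) and 1 in IVG-NT against IVG (153). It gave 6 in IVG-NT against IVG at day 6 (2638) and 4 in IVG-NT between the days (2739). The main fit had 691, 261, 2430 and 2661 of 21009 genes beyond the threshold in these comparisons, in this order. Fitting the compared groups alone gave 1 in IVG against IVV (970 of all genes) and 3 in IVG-NT against IVV (737). It gave 1 at day 6 (451) and 1 in IVG-NT between the days (706). Each such fit had its own filter, which removed Slc2a3 from every comparison without IVV and Hk1 from that at day 6. These genes were not tested there. RLE scaling gave 0 in IVG between the days (578 of all genes), and rRNA-rich libraries alone gave 0 there (454). For IVG-NT against IVV the rRNA-rich libraries leave a single IVV library, so no count is given. Other counts moved little but held other members. At day 6, RLE scaling lost Pdha1 and gained Dlat, and no filter gave 2 without Pdha1. The kind of library in the model or rRNA-rich libraries alone lost Slc2a3 and gained Pdhb. Of all genes, 2546 met the threshold with RLE scaling, 4022 with no filter, 3312 with the kind and 4630 in rRNA-rich libraries. In IVG-NT between the days, RLE scaling and the kind in the model each gave 3, with Dlat added, beside 2707 and 3555 of all genes. For the interaction, Hk1 was lost with the kind in the model (3: Ldhb, Pdhb and Pfkl), in rRNA-rich libraries alone (3: Pdha1, Pdhb and Pfkl) and with no filter (1: Pfkl), the last chosen after seeing the data. Leaving out each library gave 0 to 1 in IVG against IVV, in IVG-NT against IVV and in IVG between the days, 0 in IVG-NT against IVG, 1 to 4 at day 6, 1 to 3 in IVG-NT between the days, and 1 to 3 for the interaction. With IVG-NT day 6 replicates 1 and 2 both left out, a setting chosen after seeing the data, the number was 0 at day 6, in IVG-NT between the days and for the interaction. RLE scaling moved the median of all genes from -0.20 to -0.39 in IVG against IVV, from -0.19 to -0.36 in IVG-NT against IVV, from -0.27 to 0.00 at day 6 and from 0.40 to 0.04 in IVG-NT between the days.

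With the replicate number as a block, the number was 2 in IVG-NT against IVV (Hk1 and Slc2a3), 1 at day 6 (Pfkl) and 0 in IVG between the days. In IVG-NT against IVG it stayed at 0. Of all genes, 556, 1138, 360 and 127 met the threshold in these comparisons, in this order. The pairing correlations reached down to 0.083 at day 6 and 0.066 in IVG-NT between the days, and were -0.52 to -0.28 for the numbers shared with IVV.

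Differences in the Ldhb share reversed, in percentage points, from 0.580 to -0.672 (IVG minus IVV) and from 1.09 to -0.165 (IVG-NT minus IVV) without IVV replicate 3, from 0.507 to -0.295 (IVG-NT minus IVG) without IVG replicate 2, from -0.410 to 0.113 (IVG-NT minus IVG, day 6) without IVG-NT day 6 replicate 2, and from 0.0718 to -0.450 (IVG-NT, day 10 minus day 6) without that library or -0.0901 without IVG-NT replicate 3. Over all libraries left out, they ranged from -0.672 to 1.38, -0.165 to 1.72, -0.295 to 0.918, -0.678 to 0.113, -1.26 to -0.0428 (IVG, day 10 minus day 6) and -0.450 to 0.340.

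Among log2 fold changes, Pfkl reversed to -0.86 at day 6 and 0.86 between the days with NT-4 without the 2 shallow libraries, which also gave -6.31 for Slc16a3 and -4.31 for H6pd at day 6 and 4.56 for H6pd between the days. Over all libraries left out, H6pd ranged from -4.87 (without replicate 1) to 5.83 at day 6 and from -5.92 to 5.13 (without replicate 1) between the days, Slc16a3 from -6.21 (without replicate 2) to 14.5, and Slc2a3 between IVG days from -10.2 to 5.0 (without IVG day 6 replicate 2); the cause was not tested beyond the libraries named. Settings where both groups were at 0 gave no value. Hk1 and Slc2a3 had under 100 counts in most libraries. The deepest, IVG day 6 replicate 3 at 55.6 M, held 18 and 0, and the part of depth in these counts was not tested.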
